A study of Triticum aestivum with 3 samples.

Results

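The leaf degradome of wheat (Triticum aestivum) seedlings given dithiothreitol (DTT) together with tauroursodeoxycholic acid (TUDCA) was compared with that of untreated seedlings. The members were the 6 libraries of the deposited comparison of these treatments, 3 per group, out of 9 libraries in the series, and all combinations of small RNA and transcript that had reads in them. The other 3 libraries were from leaves given DTT without TUDCA. They entered the joining of pairs and 1 alternative fit, and are otherwise shown for reference only. Pairs with a small RNA or a transcript in common, and with read counts that differed by at most 20% over the 9 libraries, were joined and counted once, as 1 degradome signal. Joining ran from pair to pair, so that the outermost pairs of a signal can differ by more. This left 3815 signals out of 4575 in the whole series, from 10570 of 12451 pairs. Leaves were taken after 2 days of treatment, and the series design describes the replicates as independent and biological. Both groups were leaves of seedlings of the same species and treatment time, and they differed in both agents at once. A group given TUDCA alone was not analysed here, so DTT and TUDCA cannot be told apart in this comparison.

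DTT reduces disulphide bonds and so disturbs protein folding in the endoplasmic reticulum, and TUDCA, a bile acid, acts as a chemical chaperone that eases such stress. Plant microRNAs guide an Argonaute protein to a complementary transcript, which is cut opposite the middle of the microRNA. The downstream fragment carries a 5′ monophosphate, and degradome sequencing reads the 5′ ends of such fragments. A gain in degradome reads can accompany more cutting or more transcript, and transcript levels were not analysed here, so these cannot be told apart. In whole leaves, fewer cells of a type and less RNA per cell cannot be told apart either. The series asks which transcripts are microRNA targets during stress of the endoplasmic reticulum.

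Small RNAs were grouped by the number after miR or MIR in their name, which gave 244 families with reads. Many names come from other species or carry suffixes, such as L-2, R+1 or 1ss20CT, whose key is not given in the sources used here. The transcripts had no annotation in the sources used here, so the usual targets of a family are given as background only, and the leaf origin could not be checked against marker genes. The chromosome arm and subgenome (A, B or D) were read from the transcript ID where it names one. Where a signal joined several transcripts and 1 arm is given, it is that of the transcript that names the signal.

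The control libraries held 12.55M, 12.37M and 11.25M reads and the libraries of DTT with TUDCA 12.81M, 13.01M and 12.54M. Signals of the 6 libraries held 37381 reads in all. Few reads backed each signal, and 1280 signals had only a single read (33.6%), while 502 had 10 or more. Of the 3815 signals, 166 had enough reads to be tested, and they held 62.6% of the reads. Levels are given as reads per 10M library reads, with the SD over 3 libraries, and they are not corrected for transcript length.

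Degradome reads at small RNA sites were more numerous with DTT and TUDCA, in many weak signals. The control libraries showed 1163, 1242 and 1166 signals and the treated libraries 1414, 1579 and 1519. Counts of signals and of families, here and below, were not scaled to library reads. The shallowest library was a control one and the deepest a treated one. Reads in signals came to 4057, 4741 and 4559 per 10M in the control and to 5076, 5713 and 5870 with treatment. Every treated library lay above every control library on both measures. The exact two-sided permutation p was 0.1 for each, the smallest that 3 against 3 libraries allow, so this design cannot pass 0.05.

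The gain was not confined to strong signals. Signals seen by a single read numbered 552.3 ± 8.39 in a control library and 740.3 ± 90.3 in a treated one. Signals too thin to be tested held 1664 ± 140 and 2074 ± 46.7 reads per 10M, without overlap of the groups. The 10 strongest signals together held 1258 ± 146 and 1582 ± 307, and here the groups overlapped (exact permutation p = 0.3). Families with at least 1 read numbered 172.3 ± 5.77 and 188 ± 5.57. Adjusted over these library totals, 7 in number, the Benjamini-Hochberg value was 0.117 where the groups did not overlap and 0.3 for the 10 strongest signals.

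The test of single signals, edgeR's quasi-likelihood test on raw read counts with the library reads as library sizes, called 14 of 166 signals higher (8.43%) and 2 lower (1.2%) at an adjusted p of 0.05. The remaining 150 did not pass, while an unadjusted p under 0.05 was reached by 33. The groups of libraries did not overlap in 38 of the tested signals (22.9%), 27 of them higher (16.3%) and 11 lower (6.63%). All 16 called signals were among these. Testing needed a scaled count of about 5 in at least 3 libraries. The control libraries alone fell short of this for atr-MIR8606, aly-miR172c-3p_L-3, ath-miR5634, tae-MIR1135, ath-miR847_L-2 on 2BS, gma-MIR5368-p5_1ss3TC and both miR398 signals. For har-miR403a the treated libraries alone fell short. These signals were thus tested with the help of the group where they stood higher, and their number among the calls is no separate support. Across the tested signals, the median log2 change was 0.30 with library reads, 0.09 with TMM scaling and 0.07 with median centring. Relative to the first of these, the higher calls with at least 5 control reads stood from 1.04 to 2.60 above the median and the lower ones at -1.46 and -2.40. Higher calls made up 87.5% of all calls with library reads, 81.8% under TMM (9 and 2) and 75% after centring (9 and 3).

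**Figure D1:**
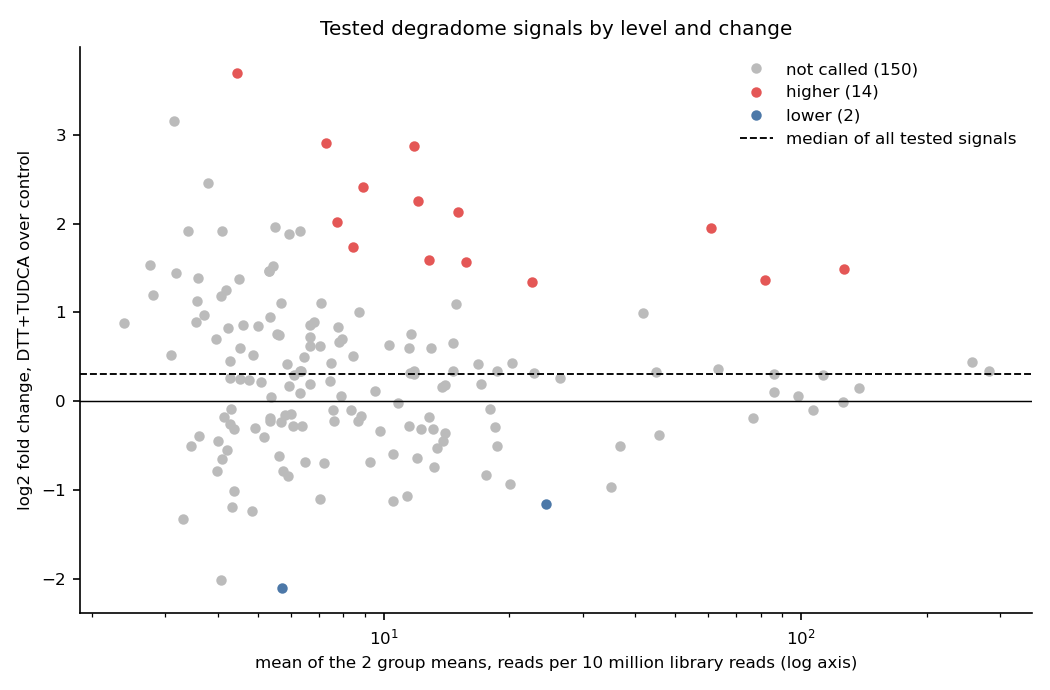
Each point is 1 of the 166 tested signals, with the mean of both group means in reads per 10M library reads (log axis) on the horizontal axis and the log2 fold change of DTT with TUDCA over control on the vertical axis. The 14 signals called higher lie at log2 fold changes of 1.34 or more, and the dashed median of all signals lies at 0.30, above 0.

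Of 3 tested signals in copper-related families, 2 were higher and 0 lower, both of miR398, with a median log2 fold change of 1.74 over the 3. Over all tested signals 8.43% were called higher and 1.2% lower, and 3 signals are too few to speak for a list. DESeq2, voom, TMM scaling and median centring each called 1 of the 3 higher and 0 lower. At an unadjusted p under 0.05, 0 were lower with library reads and 1 under TMM and after centring. The miR398 family is known to target copper/zinc superoxide dismutases and their copper chaperone. The signal of ath-miR398b-3p_1ss20TG on Traes_2AL_8123ADD82 (arm 2AL) had 6, 7 and 2 reads in the control libraries and 20, 31 and 26 with treatment. The lowest treated library held more reads than the highest control library. Its level rose from 4.07 ± 2.04 to 20.1 ± 4.15 (adjusted p = 0.000425), by log2 2.25 (SE 0.49), or 1.95 above the median signal. A second signal, of tae-miR398 and 4 more small RNAs, lay on transcripts of 2AS, 2BS and 2DS and had 7, 5 and 2 reads against 11, 16 and 23. The rise was from 3.80 ± 1.91 to 13.1 ± 4.92 (adjusted p = 0.0212, log2 1.74, SE 0.54). This second call was lost without control replicate 2 (adjusted p = 0.121) or 3 (0.171) and without treated replicate 2 (0.0829) or 3 (0.303).

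No other copper family had a called signal. The miR397 family, which targets laccases, had 1 tested signal, that of atr-MIR397a-p3_2ss15AT18GT, though its name marks it as a precursor-derived variant. It joined 7 transcripts of 5AL, 5BL and 5DL, with 13, 13 and 9 reads in the control and 6, 4 and 7 with treatment. These groups did not overlap, in the direction opposite to miR398, but the difference did not pass (log2 -1.10, SE 0.57, adjusted p = 0.269). The whole miR397 family stood at 11.9 ± 0.935 and 6.52 ± 1.61 (adjusted p = 0.197). The miR408 family, which targets plantacyanin and laccases, had 6 control and 12 treated reads in all, and miR528 had 1 read in each group, too few for a test.

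Families that target developmental transcription factors were taken as 1 list, with miR394, which targets an F-box gene, counted among them. In this list 4 of 43 tested signals were higher (9.30%, against 8.43% of all tested signals) and 0 lower. The median log2 fold change was 0.32, against 0.30 over all signals. Both values lie near those of all signals. The 4 belonged to miR164, miR156, miR172 and miR444. At an unadjusted p under 0.05, 8 were higher and 1 lower, the lower one of miR394, and DESeq2 and voom also called 0 lower. The groups did not overlap upward in 8 of the 43 (18.6%, against 16.3% of all) and downward in 3 (6.98%, against 6.63%), also near the values of all signals.

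The strongest of them was that of zma-MIR164h-p5_2ss4CG17CG_1 on Traes_6AL_2E1CB2A66, named for the family that targets NAC genes, though its name marks it as a precursor-derived variant. It had 31, 37 and 23 control reads and 170, 112 and 90 treated reads. All treated libraries lay above all control libraries. The rise, from 25.0 ± 4.75 to 96.9 ± 31.9, was log2 1.95 (SE 0.35, adjusted p = 2.04e-05). The 5 other tested signals of miR164 ranged from log2 0.10 to 1.92 and were not called. The tae-miR164 signal on 7AL and 7DL, which held 35.6% of the family's reads, had 89, 124 and 88 against 97, 130 and 115 reads.

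The miR156 family targets SPL transcription factors. The aly-miR156a-5p_R+1_1ss20CT signal on the 3B transcript TRAES3BF084600040CFD_g, where 21 small RNA names share the same reads, had 8, 6 and 6 control reads against 42, 20 and 32. Its level rose from 5.52 ± 0.779 to 24.6 ± 8.75 (adjusted p = 0.000425, log2 2.13, SE 0.46). The signal of the same small RNA on 6AS and 6DS was stronger and had 31, 22 and 21 against 36, 38 and 24 reads (log2 0.32, adjusted p = 0.682), so the groups overlapped there. Neither the difference between these 2 signals nor that between other copies of a family was tested.

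The miR172 family targets AP2-like genes. Its aly-miR172c-3p_L-3 signal on Traes_6DS_0D9BB546D had 2, 6 and 2 control reads against 19, 23 and 16, a rise from 2.74 ± 1.83 to 15.1 ± 2.47 (adjusted p = 0.000883, log2 2.41, SE 0.55). The strongest miR172 signal, that of aly-miR172c-3p on 2AL and 2BL, had 74, 128 and 78 against 105, 123 and 138 reads (log2 0.31, adjusted p = 0.600). That on 1AS, 1BS and 1DS had 85, 103 and 106 against 61, 101 and 112 (log2 -0.19, adjusted p = 0.770). The 9 uncalled signals of the family ranged from log2 -1.19 to 1.19, on both sides of 0.

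The miR444 family, which targets MADS-box transcripts in grasses, had 1 tested signal. Its bdi-MIR444b-p3 reads, on transcripts of 7AL and 7DL, numbered 7, 9 and 7 in the control and 13, 27 and 34 with treatment. The level rose from 6.36 ± 0.858 to 19.3 ± 8.57 (adjusted p = 0.0128, log2 1.59, SE 0.46). The call was lost without control replicate 2 (adjusted p = 0.0912) or 3 (0.0766) and without treated replicate 2 (0.0694) or 3 (0.251).

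The remaining members of this list were not called. The miR169 family, which targets NF-YA transcription factors, had 11 tested signals. The nearest to the threshold was aly-miR169a-5p_1ss21AT on 2BS and 2DS, with 36, 23 and 41 reads against 49, 75 and 89 (log2 1.00, SE 0.36, adjusted p = 0.0611). The miR396 family, which targets growth-regulating factors, had tae-MIR396-p3 on 5BL and 5DL at 1, 2 and 1 reads against 10, 9 and 6 (log2 2.45, SE 0.99, adjusted p = 0.102). The signals of ata-miR396c-5p and pab-miR396b held identical counts in all libraries (1, 6 and 3 against 5, 12 and 13, adjusted p = 0.224) and may be the same reads, but they have neither a small RNA nor a transcript in common and so were not joined. The miR394 family targets an F-box gene. Its aly-miR394a-5p_R+1 signal on 3AL, 3B and 3DL had 12, 17 and 26 control reads and 5, 12 and 11 treated reads (log2 -1.06, adjusted p = 0.149), with the groups not overlapping on the scaled values. The miR166 family, which targets HD-ZIP III genes, had 5 tested signals, between log2 -0.69 and 0.53.

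**Figure D2:**
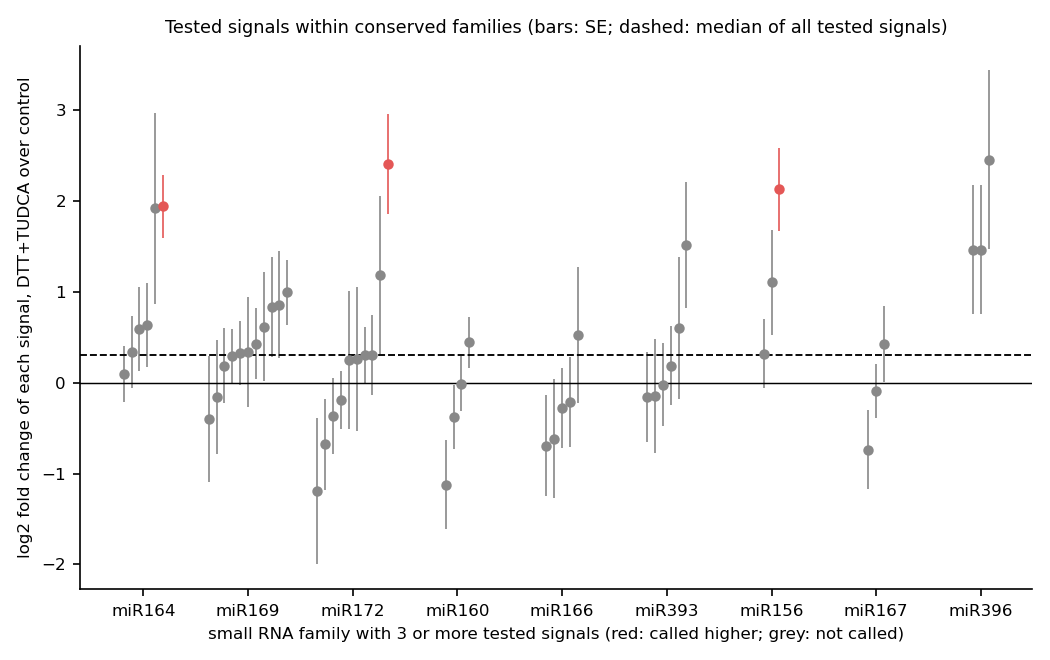
Log2 fold change (DTT with TUDCA over control, vertical axis, bars show the SE of the fit) of every tested signal in the 9 conserved families with 3 or more tested signals. In miR156, miR164 and miR172 a single red signal stands at 2.13, 1.95 and 2.41 above uncalled signals of the same family, and the 4 miR160 signals lie between -1.12 and 0.45.

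Auxin-related families gave some of the strongest signals and no call. These are miR160 and miR167, which target auxin response factors, miR390, which directs tasiRNA production from TAS3, and miR393, which targets TIR1/AFB receptors. Of their 14 tested signals, 0 were called by edgeR, by DESeq2 or by voom. Over all tested signals 8.43% were called higher and 1.2% lower, so few calls would fall in a list this short. At an unadjusted p under 0.05, 1 was higher and 1 lower. The groups did not overlap in 1 (7.14%, against 22.9% of all). Without control replicate 1 a single auxin-related signal was called lower, and without treated replicate 1 a single one higher. Their median log2 fold change was -0.02, against 0.30 over all signals. The tae-miR160 signal on 1AL, joined with 1BL and 1DL, had 249, 270 and 265 reads in the control and 219, 451 and 465 with treatment. The treated libraries were split, with replicate 1 below and replicates 2 and 3 above every control library. Treated replicate 1 was also the lowest library on 7AL, joined with 7BL and 7DL, with 143, 142 and 170 against 87, 188 and 206, and on 6AL, with 48, 55 and 81 against 25, 68 and 59. There, on the scaled values, treated replicates 2 and 3 lay within the control range, except replicate 3 on 7AL, which lay above it. The miR167 signal on 7AL and 7DL had 120, 161 and 119 against 146, 115 and 136.

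Families tied to sulfate and phosphate supply had 3 tested signals. Of these, 0 were called by edgeR, DESeq2 or voom and 0 had an unadjusted p under 0.05. With 8.43% of all tested signals called higher, 3 signals are too few to tell. The median log2 fold change of the 3 was -0.18, and the sums of these families are given further on. The 2 tested signals of families that target the silencing machinery itself both stood lower, and 1 of them was called. Over all tested signals 1.2% were called lower, and 2 signals are too few to speak for a list. The har-miR403a_R-3 signal, in the family known to target AGO2 in Arabidopsis, lay on transcripts of 2AL, 2BL and 2DL and fell from 9.30 ± 5.55 to 2.08 ± 0.422 (log2 -2.10, SE 0.71, adjusted p = 0.0421). Its reads numbered 11, 5 and 17 in the control and 3, 3 and 2 with treatment. This call was lost without control replicate 1 (adjusted p = 0.0858) or 3 (0.422) and without treated replicate 1 (0.0538), 2 (0.129) or 3 (0.251). It was also lost by DESeq2 with its own size factors (adjusted p = 0.0851), by voom (0.298), with no filter on low counts (0.521), with all 3 treatments in 1 fit (0.110) and with the replicate number as a block (log2 -1.98), and DESeq2 with library reads gave it no adjusted p. The signal of aof-miR168a_R-2 on 1AL, in the family that targets AGO1, had 82, 36 and 50 against 19, 47 and 25 reads (log2 -0.97, SE 0.37, adjusted p = 0.0882), with overlap. It passed after median centring, by DESeq2 with its own factors and without treated replicate 2 (log2 -1.41, adjusted p = 0.0418).

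Outside the conserved families, the Triticeae small RNA tae-miR9676-5p gave the strongest called signal. On transcript Novel13637 it had 67, 78 and 94 reads in the control and 206, 270 and 241 with treatment. All treated libraries lay above the control range. The level rose from 66.7 ± 15.4 to 187 ± 23.8 (adjusted p = 0.000223), by log2 1.49 (SE 0.30), or 1.19 above the median signal. Of 6 tested signals of the Triticeae families miR9650 to miR9799 it was the only one called (16.7%, against 8.43% of all tested signals).

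The signal of atr-MIR8606-p5_2ss15TG18AG on Traes_1DL_88D2ACD05 had the lowest unadjusted p of all. Its reads went from 4, 4 and 2 to 29, 24 and 27, and its level from 2.73 ± 0.828 to 20.9 ± 2.17 (adjusted p = 2.04e-05, log2 2.87, SE 0.51). The aly-MIR163-p5_2ss8GA18GC signal on Traes_7BS_1A6D16C6B had 51, 68 and 47 reads against 167, 152 and 134 (log2 1.36, SE 0.32, adjusted p = 0.000937). In Arabidopsis miR163 targets methyltransferase transcripts. The ath-miR5634 signal on Traes_5DL_EE7FC3AEE had 1, 5 and 0 reads against 14, 27 and 9 (log2 2.90, SE 0.67, adjusted p = 0.000937), and its call was lost without treated replicate 2 (adjusted p = 0.126).

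The wheat repeat-associated families miR1117 to miR1139 had 5 tested signals and 1 call (20%, against 8.43% of all tested signals called higher). That signal, of tae-MIR1135-p3_1ss21TC, joined 20 transcripts with EPlTAEG identifiers whose reads were alike but not the same. Its deepest transcript, EPlTAEG00000003095, stood for it in the test, with 1, 1 and 0 control reads and 8, 11 and 13 treated reads. The ratio of reads there, scaled by library reads, was 15.1 with a 95% counting interval from 3.85 to 130 (adjusted p = 0.00585). Over the 20 transcripts the control reads numbered 1 to 5 and the treated reads 19 to 32, and the ratio ran from 4.48 to 23.6, so its size depends on the transcript taken. Taken one by one, 10 of the 20 were deep enough for the test, and these 10 were higher (adjusted p from 0.00802 to 0.0402), although they may hold many of the same reads. With so few control reads, a transcript could be deep enough only through its treated reads. These 10 are therefore no separate support for the call. The signal's call was lost without treated replicate 3 (adjusted p = 0.120), by voom (0.0607), by DESeq2 with its own size factors (0.0664) and with no filter on low counts (0.0501). In the other 15 called signals the joined pairs held identical counts in all 6 libraries.

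The other calls were weaker. The ath-miR847_L-2 signal on Traes_2BS_4E5639007 had 2, 9 and 0 reads against 15, 15 and 18 (log2 2.02, SE 0.60, adjusted p = 0.0163). In Arabidopsis miR847 targets the auxin repressor transcript IAA28. The same small RNA on Traes_1DS_B73475505 had 184, 170 and 121 against 170, 215 and 172 reads (log2 0.15, adjusted p = 0.804). The 2BS call was lost without control replicate 1 (adjusted p = 0.0762) or 3 (0.171) and without treated replicate 2 (0.0581) or 3 (0.251).

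The pab-MIR11418-p3_2ss11GT18TG signal on transcripts of 4BL and 4DL had 13, 13 and 20 reads against 26, 61 and 38 (log2 1.34, SE 0.40, adjusted p = 0.0171). It was lost without control replicate 1 (adjusted p = 0.0707) or 2 (0.129) and without treated replicate 2 (0.248) or 3 (0.108). The gma-MIR5368-p5_1ss3TC signal on 6AL and 6DL had 14, 13 and 2 reads against 32, 35 and 24 (log2 1.57, SE 0.44, adjusted p = 0.0110). It was lost without control replicate 2 (adjusted p = 0.0912) or 3 (0.171) and without treated replicate 2 (0.0620) or 3 (0.0737). A second small RNA of that family, gma-MIR5368-p5_1ss2TC_1, had 1, 0 and 1 reads against 9, 6 and 7 on the same transcripts (adjusted p = 0.101).

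The only lower call beside miR403a was that of mtr-MIR2592bj-p3_2ss10TC17AT, spread over 9 transcripts with EPlTAEG identifiers. It had 35, 56 and 32 reads in the control and 18, 17 and 23 with treatment, and it fell from 33.9 ± 9.89 to 15.2 ± 2.80 (log2 -1.16, SE 0.39, adjusted p = 0.0401). It was lost without control replicate 2 (adjusted p = 0.129) or 3 (0.0705) and without treated replicate 1 (0.0593), 2 (0.194) or 3 (0.108). Leaving out a library also leaves fewer libraries in the test.

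The calls of tae-miR398, bdi-MIR444b-p3, gma-MIR5368-p5_1ss3TC, pab-MIR11418-p3_2ss11GT18TG and ath-miR847_L-2 on 2BS ended under both TMM and median centring, and also by DESeq2 with its own size factors, with no filter and with all 3 treatments in 1 fit. Those of tae-miR398 and ath-miR847_L-2 ended by voom and by DESeq2 with library reads as well. The aly-miR172c-3p_L-3 and ath-miR5634 calls ended by voom (adjusted p = 0.0607 and 0.0673), and that of mtr-MIR2592bj with no filter (0.521) and with all 3 treatments in 1 fit (0.101). Under every alternative run, 6 signals kept their call, those of atr-MIR8606, zma-MIR164h, tae-miR9676-5p, aly-miR156a, ath-miR398b and aly-MIR163.

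**Figure D3:**
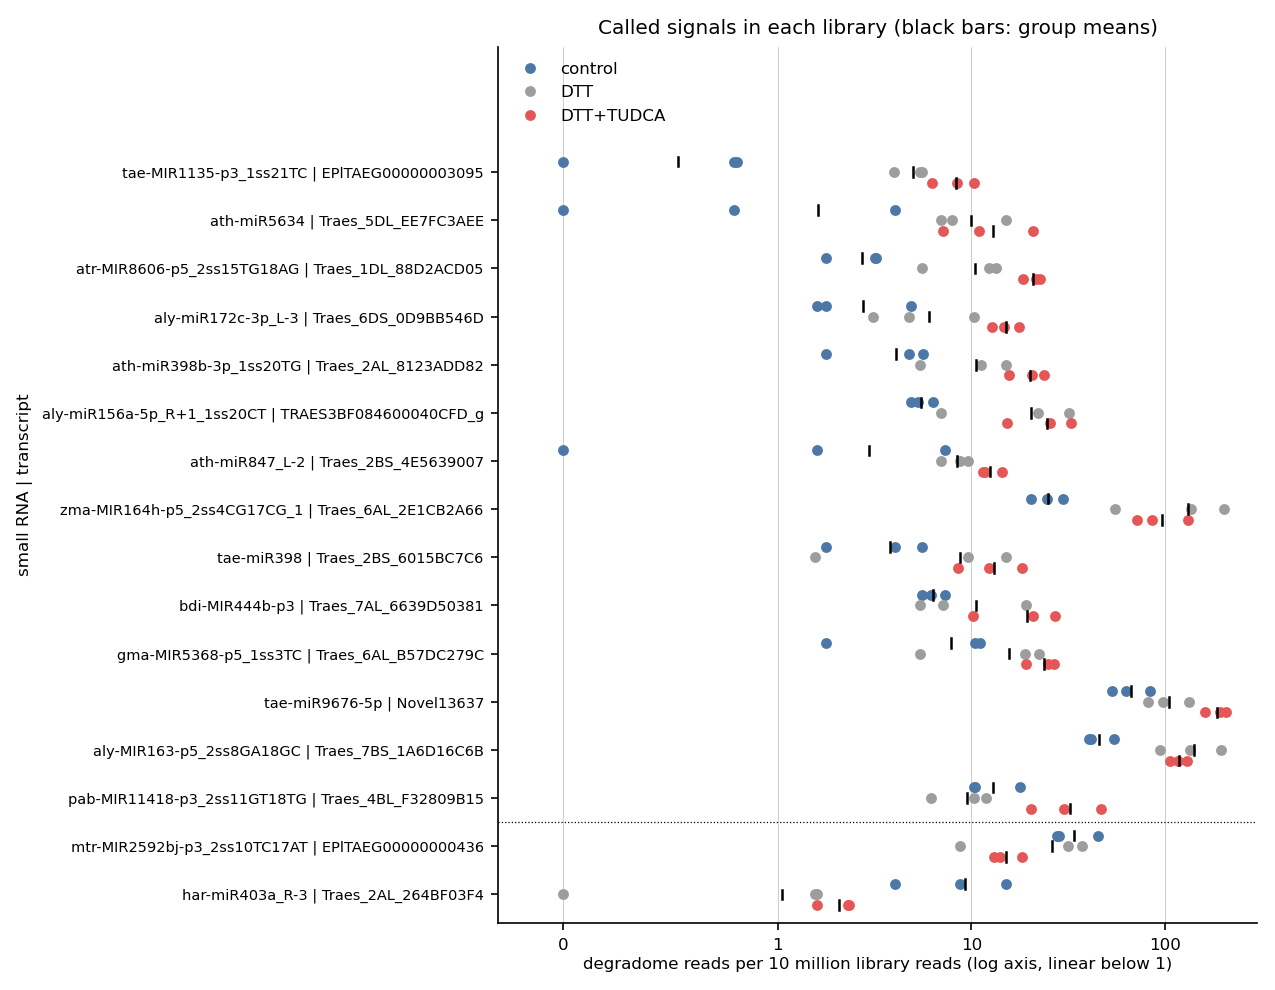
Reads per 10M library reads (horizontal axis, log scale that is linear below 1) of the 16 called signals in every control, DTT and DTT+TUDCA library, sorted by log2 fold change, with black bars at group means and a dotted line above the 2 lower calls. In every one the control and DTT+TUDCA points do not overlap, and the DTT points are shown for reference.

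The libraries of DTT without TUDCA are set beside these signals for reference, and the difference between the treatments given DTT was not tested here. They were read against the same control libraries, so their values are not independent of the comparison above. The signals called higher were also picked for standing higher with DTT and TUDCA than in these controls. That choice alone can leave the DTT libraries between the groups or below the range with TUDCA. The counts that follow have no counterpart over all tested signals here, so no order of the treatments can be read from them. In 6 of the 14 signals called higher, all DTT libraries lay above all control libraries, and in the other 8 they overlapped the control. In 7 of the 14 they lay wholly below the range with TUDCA, and in 7 they overlapped it. The DTT mean lay between the means of control and DTT+TUDCA in 11 of them. It stood above the mean with TUDCA for zma-MIR164h, at 132 ± 73.9 against 96.9 ± 31.9, and for aly-MIR163, at 141 ± 50.4 against 118 ± 11.8. It stood below the control for pab-MIR11418, at 9.50 ± 2.97 against 12.9 ± 4.24. For tae-miR9676-5p the DTT mean was 105 ± 26.6, between 66.7 ± 15.4 in the control and 187 ± 23.8 with TUDCA.

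Reads were also summed over all signals of a family, which gathers signals too thin to test. Of 110 family sums tested by edgeR, 11 were higher (10%) and 1 lower (0.909%), and 27 had an unadjusted p under 0.05. The median log2 fold change of the sums was 0.39. With TMM or centring the higher calls numbered 3 and the lower 1 (75% higher, against 91.7%), with miR9676, miR8606 and miR398 the higher ones and miR2592 the lower one.

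For some families the gain lay beyond the called signal. The miR8606 sum went from 7, 11 and 5 reads to 44, 45 and 57, or from 6.31 ± 2.31 to 38.1 ± 6.33 (adjusted p = 0.000354, log2 2.57, SE 0.32). Its called signal held 53.3% of the reads. The 23 other signals, none of them tested singly, held 3, 7 and 3 control reads and 15, 21 and 30 treated reads, and their sum passed by itself (log2 2.23, adjusted p = 0.00690). The miR11418 sum rose from 21.6 ± 7.19 to 53.6 ± 10.9 (log2 1.32, adjusted p = 0.00898). Without its called signal the 25 others still rose from 8.68 ± 3.50 to 21.1 ± 4.79 (log2 1.28, adjusted p = 0.0432), although the sum's own call was lost without treated replicate 3 (adjusted p = 0.0530).

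The miR824 family, known in Arabidopsis to target the MADS-box gene AGL16, had no signal deep enough for a test. Its 12 signals held 7, 4 and 5 control reads and 12, 21 and 17 treated reads, and the sum rose from 4.42 ± 1.17 to 13.0 ± 3.42 (adjusted p = 0.0480, log2 1.54, SE 0.44). This call was lost without control replicate 1 (adjusted p = 0.0859), 2 (0.0920) or 3 (0.108) and without treated replicate 2 (0.227) or 3 (0.177). It was also lost without the strongest signal of the family (log2 1.51, adjusted p = 0.127). The miR5368 family was spread the widest, over 263 signals with at most 11.5% of the reads in any 1. Its sum had 239, 240 and 212 control reads and 365, 371 and 300 treated reads (191 ± 2.87 to 270 ± 26.5, log2 0.50, SE 0.14, adjusted p = 0.0467). Set against the median family sum the change was 0.11, and the call was lost without control replicate 1 (adjusted p = 0.120), 2 (0.0906) or 3 (0.136) or treated replicate 1 (0.0822) or 2 (0.186).

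For other families the sum no longer passed without its strongest signal. The miR163 sum rose from 73.4 ± 9.03 to 140 ± 19.5 (log2 0.93, adjusted p = 0.00823), while its 29 other signals together stood at 27.6 ± 4.94 and 21.6 ± 7.69. Without its strongest signal the sum's log2 fold change was -0.35 (adjusted p = 0.537), the opposite sign. The miR444 sum rose from 20.4 ± 1.61 to 37.5 ± 1.45 (log2 0.87, adjusted p = 0.0267) and stood at 14.0 ± 1.42 and 18.2 ± 9.58 without bdi-MIR444b-p3 (adjusted p = 0.593). The sum's call was lost without control replicate 1 (adjusted p = 0.0984) or 3 (0.0865) and without treated replicate 2 (0.0854) or 3 (0.0718). The miR9676 sum rose from 67.7 ± 14.1 to 193 ± 25.5 (adjusted p = 0.000354), and 97.3% of it was the tae-miR9676-5p signal. Its 2 other signals stood at 1.06 ± 1.84 and 5.97 ± 2.15, without overlap of the groups (log2 2.34, adjusted p = 0.0690). The miR5634 family had a single signal, and as a sum it passed with an adjusted p of 0.0386, lost without control replicate 3 (0.0865) or treated replicate 1 (0.0554), 2 (0.143) or 3 (0.0817).

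The miR398 sum had 15, 12 and 4 reads against 31, 50 and 49 (8.40 ± 4.35 to 33.9 ± 8.41, log2 1.98, SE 0.38, adjusted p = 0.00864). Outside its 2 called signals it held 0.531 ± 0.920 and 0.769 ± 1.33 per 10M. Without treated replicate 3 its adjusted p was 0.0651. The miR164 sum, at 217, 244 and 210 reads against 398, 377 and 361, rose from 186 ± 12.2 to 296 ± 12.7 (adjusted p = 0.00898, log2 0.67, SE 0.14). Without zma-MIR164h its 86 other signals stood at 161 ± 10.7 and 199 ± 19.4, again without overlap. The miR1135 sum rose from 2.98 ± 3.04 to 15.1 ± 5.00 (log2 2.28, adjusted p = 0.0377), and its call was lost without control replicate 1 (0.0584) or 3 (0.0918) or treated replicate 2 (0.118) or 3 (0.194). Without its strongest signal the miR1135 sum did not pass either (log2 1.41, adjusted p = 0.239). The miR2592 sum fell from 66.8 ± 11.0 to 36.3 ± 7.66 (log2 -0.88, SE 0.22, adjusted p = 0.0267). Its 19 uncalled signals stood at 32.9 ± 7.10 and 21.2 ± 5.71, and the call was lost without control replicate 2 (adjusted p = 0.0593) or treated replicate 2 (0.0864) or 3 (0.0651). Without its strongest signal the miR2592 sum did not pass either (log2 -0.64, adjusted p = 0.170).

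**Figure D4:**
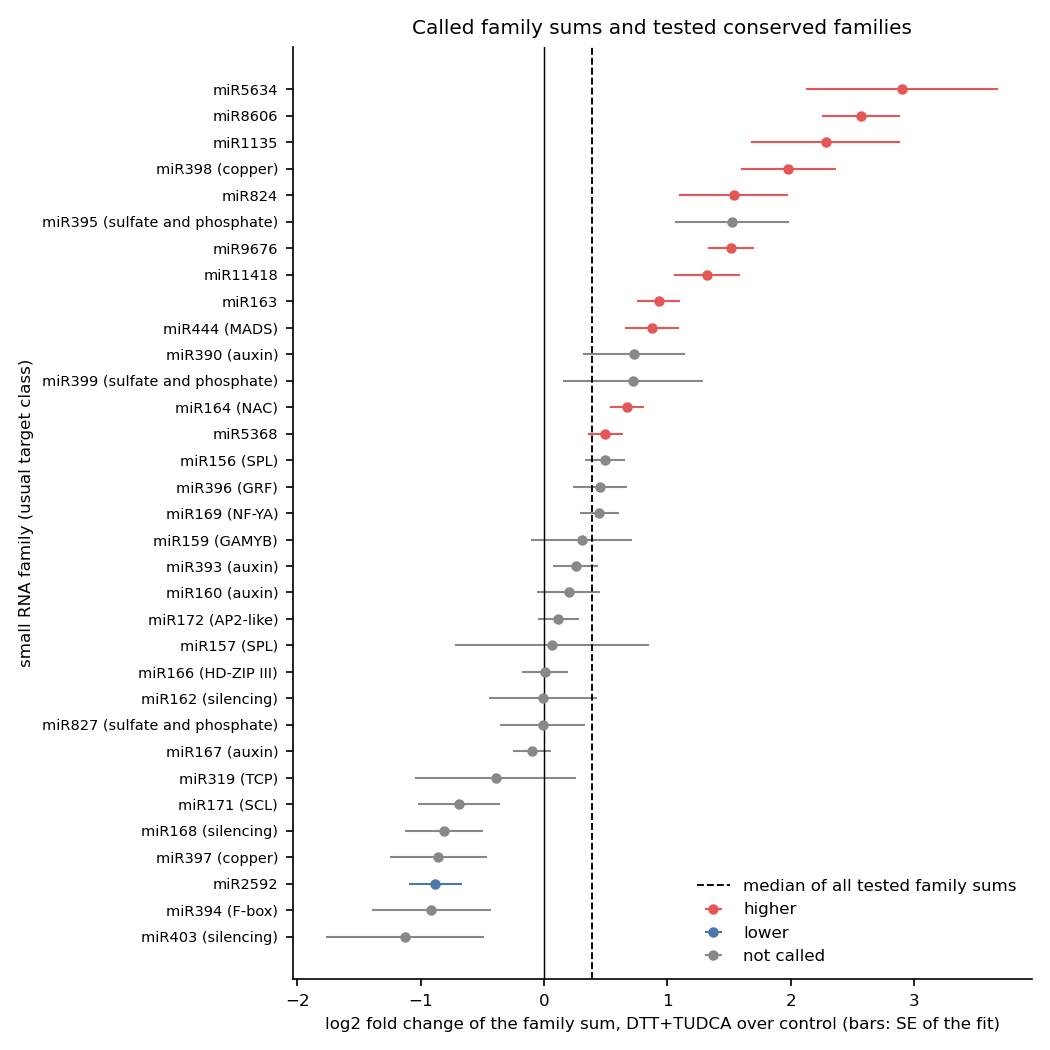
Log2 fold change of family sums (DTT with TUDCA over control, horizontal axis, bars show the SE of the fit) for the 12 called sums and all tested conserved families, with the usual target class in brackets. The miR398 sum stands at 1.98 and the silencing families miR403 and miR168 at -1.13 and -0.81, and the dashed line marks the median of all tested sums at 0.39.

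Sums of the remaining conserved families were not called. The miR395 family targets ATP sulfurylase and a sulfate transporter, and its 18 signals had 6, 7 and 8 reads against 11, 33 and 21 (5.85 ± 1.18 and 16.9 ± 8.39, log2 1.52, SE 0.46, adjusted p = 0.0621). The miR399 family, which targets the phosphate regulator PHO2, stood at 5.42 ± 4.00 and 9.10 ± 2.40, and miR827, which targets SPX-domain genes, at 23.8 ± 9.72 and 23.5 ± 5.82. The miR156 sum stood at 75.1 ± 10.5 and 106 ± 4.48 (adjusted p = 0.0826) and that of miR169 at 330 ± 53.4 and 451 ± 31.6 (adjusted p = 0.104), both without overlap. Those of miR172 (257 ± 39.6 and 279 ± 35.5), miR160 (438 ± 70.9 and 503 ± 186), miR167 (160 ± 13.6 and 149 ± 18.2) and miR166 (77.2 ± 6.38 and 77.5 ± 15.8) had adjusted p of 0.672 or more.

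Several sums stood lower without passing. The miR168 sum had 99, 48 and 76 reads against 33, 67 and 35 (log2 -0.81, SE 0.32, adjusted p = 0.147), and miR403 12, 5 and 18 against 9, 6 and 2 (log2 -1.13, adjusted p = 0.275). The miR162 family, which targets DCL1, stood at 9.46 ± 3.29 and 9.37 ± 3.03. The miR171 sum, in the family that targets SCL transcription factors of the GRAS group, had 19, 19 and 17 reads against 10, 11 and 15 (15.2 ± 0.139 and 9.41 ± 2.23, adjusted p = 0.230). The miR447 sum had 14, 16 and 9 reads against 7, 0 and 1 (log2 -2.31, SE 0.78, adjusted p = 0.0896).

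Most signals were seen in too few libraries to follow. Of the 3815 signals, 1092 had reads in 1 treated library only, 859 in 1 control library only, and 231 in all 6 libraries. All 3 treated libraries and no control library held reads in 63 signals, and the reverse was so for 15. None of either set was deep enough for the test. The 63 held between 3 and 15 reads each, and 5 belonged to miR172 and 5 to miR5368, or 7.94% each, where miR172 has 2.65% and miR5368 6.89% of all signals. Signals of a single read, 33.6% of all, could not enter this set, so these shares are not like for like. No excess of a family can be read from them. Of the 63, 28 had no read in any DTT library either and 5 had reads in all 3 of them.

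The deepest of the 63, PC-3p-142367_15 on transcripts of 5AL, 5BL and 5DL, had 9, 4 and 2 treated reads. Against a floor of 3 counts over the control group this was at least 4.71-fold higher. This bound and those that follow cover counting error only. They do not allow for the choice of these signals by their lack of reads in 1 group, so they do not measure a change. The signal of gra-MIR8645-p5_2ss12TG17AG on Novel17439 had 5, 5 and 2 treated reads (at least 3.77-fold higher) and that of tae-MIR9670-p5 on 6AS, 6BS and 6DS had 3, 2 and 6 (at least 3.46-fold higher). In the other direction, aly-miR396a-5p_1ss20TA on 4AL had 3, 2 and 4 control reads and none with treatment (at least 3.18-fold lower). The same small RNA on 4DS had 3, 2 and 1 control reads and none with treatment. The zma-MIR164h-p5_2ss4CG17CG_1 small RNA, whose 6AL signal was called higher, had 4, 3 and 1 control reads and none with treatment on a 5BL transcript, at least 2.83-fold lower.

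Read sums were then compared over classes of transcripts, in 14 exact permutation tests over libraries. The sum over transcripts assigned to subgenome A alone stood at 717 ± 10.4 and 912 ± 96.2 reads per 10M (ratio 1.27). The corresponding sums were 491 ± 33.7 and 662 ± 25.8 for B (ratio 1.35) and 473 ± 44.5 and 584 ± 21.2 for D (ratio 1.23). Signals spread over several subgenomes stood at 1727 ± 148 and 2144 ± 244. For each of these the groups did not overlap, with an exact permutation p of 0.1 and an adjusted value of 0.14.

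The shares of a library's reads held by each subgenome moved little. Subgenome A held 16.2% ± 1.22 and 16.4% ± 0.802, B 11.0% ± 0.228 and 12.0% ± 1.28, and D 10.6% ± 0.744 and 10.5% ± 0.679. The groups overlapped in all 3, and the lowest adjusted exact permutation p of any class share was 0.933. Among tested signals on 1 subgenome, 2 of 25 were called higher in A (8%) and 3 of 29 in B (10.3%). In D it was 3 of 19 (15.8%), and over all tested signals 8.43%. Each of the subgenome shares rests on 2 or 3 calls. The medians were log2 0.33, 0.22 and 0.63 against 0.30 over all. Whether these differ between subgenomes was not tested.

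Where a called signal lay on homeologous transcripts (tae-miR398, har-miR403a, bdi-MIR444b, pab-MIR11418 and gma-MIR5368), the lines of the copies held the same reads, so the copies could not be told apart.

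By the form of the transcript ID, signals on Traes transcripts stood at 3245 ± 201 and 4099 ± 334 and those with IDs like Novel13637 at 886 ± 117 and 1088 ± 83.2, without overlap. Signals on EPlTAEG transcripts stood at 140 ± 39.7 and 141 ± 7.78 (exact permutation p = 1), with control replicate 2 the highest library at 185. Within that class tae-MIR1135 was called higher and mtr-MIR2592bj lower among 3 tested signals. The medians of tested signals were log2 0.31 on Traes and -0.09 on those with IDs like Novel13637. Of 21 tested signals of the latter kind, tae-miR9676-5p was the only call (4.76%). On Traes transcripts 12 of 132 were higher and 1 lower (9.85% together). Of all tested signals 8.43% were called higher and 1.2% lower.

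By the name of the small RNA, signals named as precursor arms (MIR) stood at 1560 ± 110 and 2071 ± 41.5, without overlap, and those named as mature microRNAs (miR) at 2346 ± 186 and 2850 ± 356, with overlap (exact permutation p = 0.3). Precursor-named signals held 35.1% ± 0.835 of the reads in the control and 37.5% ± 3.61 with treatment (adjusted permutation p = 0.933). Of tested signals, 7 of 67 precursor-named ones were higher and 1 lower (median log2 0.53), and 7 of 86 mature-named ones were higher and 1 lower (median 0.22). Called in either direction were 11.9% and 9.30%, where 8.43% of all tested signals were higher and 1.2% lower. Whether the 2 forms differ in this was not tested. Signals with wheat (tae) names stood at 1153 ± 157 and 1444 ± 265, those named for other species at 2753 ± 175 and 3476 ± 58.9, and the PC candidates at 546 ± 71.0 and 633 ± 101. Of 13 tested PC signals 0 were called by edgeR, DESeq2 or voom, with 2 at an unadjusted p under 0.05, and the nearest, PC-5p-10739_211 on 5BS, had 4, 3 and 2 reads against 15, 7 and 14 (log2 1.88, SE 0.66, adjusted p = 0.0568). It passed with less merging of lines (adjusted p from 0.0294 to 0.0367) and with the rounded normalized numbers (0.00970). The grass families miR5048 to miR5090 had 14 tested signals and 0 calls by edgeR, DESeq2 or voom, with 0 at an unadjusted p under 0.05 and a median of log2 0.39. At 8.43% of all tested signals called higher, few calls would fall among 13 PC or 14 grass signals.

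**Figure D5:**
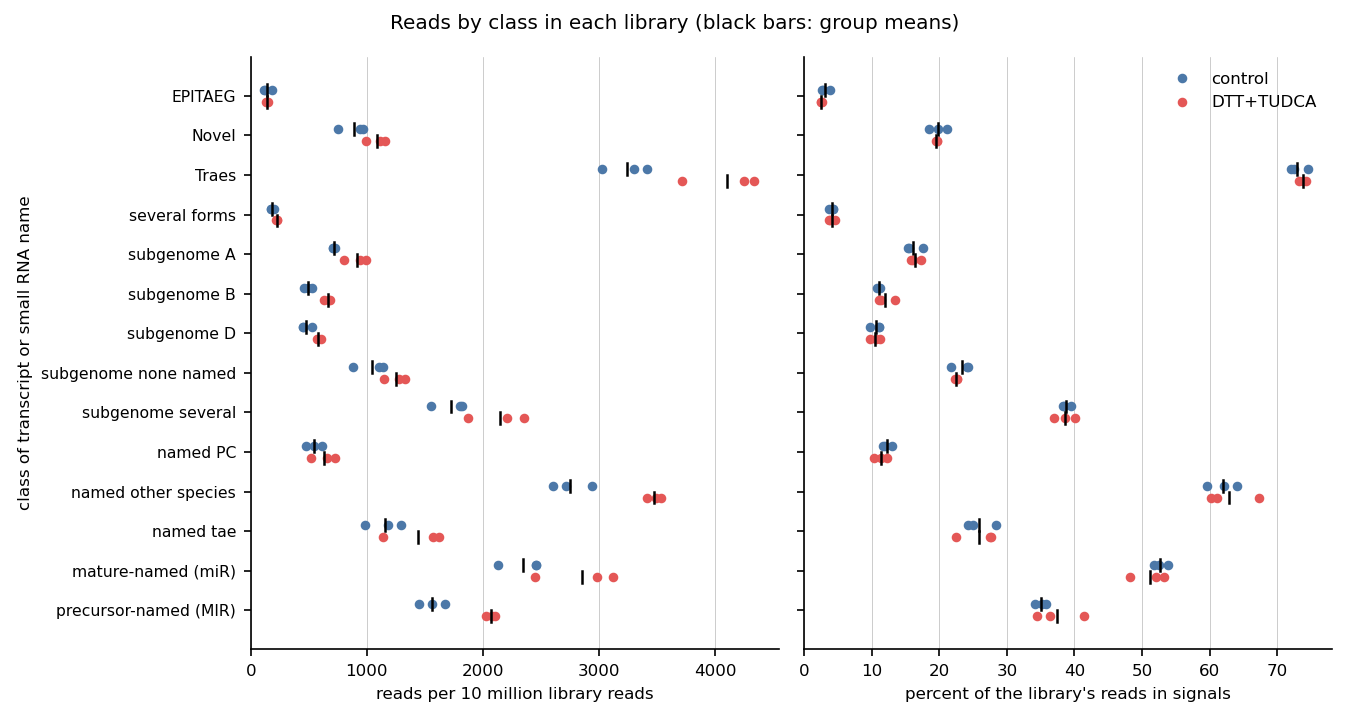
Reads per 10M library reads (left) and percent of the library's reads in signals (right) for each class of transcript ID, subgenome and small RNA name, with 1 point per library and black bars at group means. On the left most classes lie higher with DTT and TUDCA, as subgenome B at 662 against 491, and on the right the shares overlap in most classes.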

How the data were processed

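Degradome libraries were made from leaf RNA, per the labels' protocols from about 150 ng of poly(A)+ RNA, by ligation to 5′ monophosphate ends and single-end 36 bp sequencing. Which mapper, transcript set or target caller served, and with what thresholds, is not given in the sources used here. Per the file headers, the deposited table lists raw degradome read counts for each pair of small RNA and transcript in each library. It also gives a deposited normalized read number, treated here as an expected count, which is never above the raw count, and a deposited signal headed TPB. The library reads were recovered from the ratio of TPB to the normalized number. Whether they count raw, filtered or mapped reads is not given in the sources used here. A blank was read as 0, and 2 pairs listed more than once were left out. The deposited fold change and direction columns were not used.

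Lines with a small RNA or a transcript in common were merged into 1 signal where their summed difference in raw reads, over 9 libraries, was at most 20% of the larger line, link by link. The line with the most reads gave the name. The quasi-likelihood test of edgeR 4.0.16 under R 4.3.3 was run on raw counts, with library reads as library sizes, a minimum count of 5 and total of 10, and the Benjamini-Hochberg method at 0.05. DESeq2 1.42.0 and limma 3.58.1 (voom) were alternatives. For the normalized alternative, expected counts were rounded. Library totals and class sums were compared by exact two-sided permutation. The signal test was tested on simulated data. The depth of 11.25M to 13.01M reads per library leaves most signals with a few reads, and intervals and floors cover counting error only.

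The members, families, lists and named items were chosen with earlier results of these data known. The text names every called signal and family sum, the 5 uncalled signals nearest the threshold and the 5 largest without overlap in each direction, the 10 strongest, the 10 deepest seen in 1 group only, and conserved families; of these the text gives those the results turn on. The miR824, miR8606, miR163, miR447, miR1135 and other unlisted families came in by that rule or, for miR447, by its signal's place near the threshold. The design called for the homeologous copies only a description.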

Additional observations from a re-analysis of the deposited data

How the results depend on the processing

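All alternatives were chosen together with the main settings. Against 14 signals called higher and 2 lower, the higher count was 9 under TMM scaling, after median centring and by voom, 8 by DESeq2 with its own size factors and with no filter on low counts, 27 with lines merged at 5%, 29 with only identical lines merged, and 37 with 1 line per transcript. The lower count was 1 by DESeq2 with library reads, by voom, with no filter, in 1 fit of all 3 treatments and with the replicate block, 0 with the rounded normalized numbers, and 13 with 1 line per transcript. Leaving out 1 library in turn gave 8 to 22 higher and 0 to 3 lower. The 6 steadiest signals kept their calls here by definition, since these fits were among the alternatives that picked them. Against 11 family sums higher and 1 lower, the higher count was 3 under TMM and after centring, 5 with only identical lines merged and 7 with the replicate block. The lower count was 0 with only identical lines merged, without each family's strongest signal and with the block, and leaving out 1 library gave 5 to 12 higher and 0 to 2 lower. Splitting and merging change how many lines repeat the same reads, and the cause of the other differences was not tested. The miR163 sum turned to log2 -0.35 without its strongest signal.

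As a share of the reads in signals, the difference turned negative for EPlTAEG (-0.57 percentage points), IDs like Novel13637 (-0.26), transcripts of several forms (-0.0092), subgenome D (-0.11), no named subgenome (-0.85), several subgenomes (-0.25), PC (-0.89) and mature-named small RNAs (-1.52). The EPlTAEG difference of 1.56 reads per 10M ranged from -12.5 to 24.3 as 1 library was left out. The other totals and class sums kept their direction under every alternative run, without being able to pass 0.05.

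The replicate numbers 1 to 3 in the columns were not taken to pair the libraries. Same-numbered libraries deviated together with correlations of 0.126, 0.0384 and 0.0636, and differently numbered ones with -0.165 to 0.0947. So few values cannot decide whether the numbers pair the libraries. With the replicate block the signal counts were 17 higher and 1 lower, and 15 of the 16 main calls were shared. Depth limits the rest, since 66.4% of signals held 3 reads or fewer over the 6 libraries.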

Other observations

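Among the strongest uncalled signals, those of PC-3p-103864_22 on Novel12989 had 241, 365 and 290 reads in the control and 333, 418 and 457 with treatment (log2 0.34, adjusted p = 0.521). The signal of PC-5p-36288_69 on 4AL and 7AS had 134, 142 and 75 against 65, 158 and 162. Treated replicate 1 was the lowest library here, as it was for tae-miR160 on 1AL, 7AL and 6AL. The tae-MIR1122a-p3_1ss7AG signal on Novel11325 had 75, 70 and 56 against 143, 57 and 73, with treated replicate 1 the highest. The signal of hbr-MIR6173-p3_7 on 5DL had 0, 0 and 9 reads against 20, 7 and 11 (log2 1.92, adjusted p = 0.0712), and aly-MIR161-p5 on 5BL had 9, 12 and 13 against 26, 26 and 26 (log2 1.10, adjusted p = 0.0878), the latter without overlap. The gma-miR6300_L-1R+1 signal on 2AL and 2BL had 38, 23 and 34 against 17, 18 and 18 (log2 -0.93, adjusted p = 0.142), also without overlap.

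Log2 levels of the tested signals correlated between control libraries with Pearson's r of 0.70 to 0.79 across signals, between treated libraries with 0.77 to 0.82, and between the groups with 0.60 to 0.72. Signals are not independent replicates, and these values describe the libraries only.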
